A study of Mus musculus with 10 samples.

Results

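The wild-type embryonic mouse cortex was profiled in each of 2 mouse lines, and the miRNA pool of the normal tissue and the difference between the lines are described here. Of 10 small RNA libraries in the study, the 4 with a wild-type label were compared: 2 from a line made for a conditional knock-out of Dicer (Dicer WT) and 2 from a line made for a conditional knock-out of DGCR8 (DGCR8 WT). Dicer cuts precursor hairpins down to mature miRNAs, and DGCR8 works with Drosha in the nucleus to release those hairpins from the primary transcript. The wild-type libraries held 2420701 to 4486774 miRNA reads. All 4 are labelled as cortex at E13.5 (embryonic stage), with 1 mouse per library. The remaining libraries are 2 each of Dicer knock-out (Dicer KO), DGCR8 knock-out (DGCR8 KO) and DGCR8 heterozygote (DGCR8 HET) cortex. Not stated are strain background, sex, litter, the Cre driver, whether a wild type carried a floxed allele or Cre, and the way the tissue was dissected: none of these is given in the sources used here. A number in the column names of the count table also differs between the lines, so line, any run difference and any handling difference cannot be told apart in this comparison. For the DGCR8 columns that number differs from the one in the sample descriptions, and they were matched to samples by line and index.

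A mature miRNA is about as long as a short primer and guides an Argonaute protein to messenger RNAs, mostly through its seed (bases 2 to 8). At this stage cortical progenitors divide along the ventricle while the first neurons settle above them. miR-9 and miR-92b are known from neural progenitors, miR-124, miR-128, miR-137 and miR-7 from neurons. Vessels, blood, meninges, choroid plexus and tissue of the head lie in or beside the cortex and carry miRNAs of their own. Such marker miRNAs were therefore followed as lists beside the cortical ones. Lists and members were chosen with earlier results of these data known. Each count of a list set beside the share of all miRNAs is therefore a description and not an independent test.

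The mature sequences that carry the comparison are printed 5′ to 3′ from RefSeq on GRCm38.p6, with the seed in capitals.
miR-153-3p: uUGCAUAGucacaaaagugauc
miR-137-3p: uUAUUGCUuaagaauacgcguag
miR-138-5p: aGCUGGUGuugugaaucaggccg
miR-7a-5p: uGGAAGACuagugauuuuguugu
miR-7b-5p: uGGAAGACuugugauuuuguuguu
miR-434-3p: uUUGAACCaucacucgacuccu
miR-92a-3p: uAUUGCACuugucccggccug
miR-92b-3p: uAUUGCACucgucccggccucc
miR-25-3p: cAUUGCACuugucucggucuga
miR-199a-5p: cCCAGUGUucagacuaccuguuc
miR-199b-3p: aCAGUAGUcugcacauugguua
miR-214-3p: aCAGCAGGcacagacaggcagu
miR-126a-3p: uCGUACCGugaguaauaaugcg
miR-451a: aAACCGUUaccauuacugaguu
miR-10b-5p: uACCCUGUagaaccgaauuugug
The first 5 belong to the neuronal set that was higher in DGCR8 WT, and miR-434-3p stands for the imprinted set. miR-7a-5p and miR-7b-5p share the seed GGAAGAC. The abundant miR-92a-3p and miR-92b-3p share AUUGCAC with miR-25-3p. The last 6 mark mesenchyme, vessels, blood and Hox-expressing tissue. miR-199a-3p, which has the same sequence as miR-199b-3p, has no name of its own in the table. miR-153-3p lies at chr12:117250860-117250881 (+) in an intron of Ptprn2, miR-137-3p at chr3:118433901-118433923 (+) in an exon of the non-coding Gm26871, and miR-7b-5p at chr17:56243017-56243040 (+) outside other annotated genes. miR-7a-5p and miR-138-5p each come from more than one hairpin, one of the former in an intron of Hnrnpk. miR-214-3p lies at chr1:162223438-162223459 (+) in an exon of the non-coding Dnm3os, which also holds one miR-199a hairpin, and miR-199b-3p at chr2:32318524-32318545 (+) opposite to an intron of Dnm1. miR-126a-3p lies at chr2:26591402-26591423 (+) within Egfl7, miR-10b-5p at chr2:74726074-74726096 (+) in introns of Hoxd3 and Hoxd4, and miR-434-3p at chr12:109594565-109594586 (+) antisense to an exon of Rtl1. miR-92b-3p lies at chr3:89227126-89227147 (-) and miR-451a at chr11:78073186-78073207 (+), both outside other annotated genes.

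The normal pool was concentrated in few miRNAs and was alike in shape in both lines. The 10 most abundant miRNAs of each wild-type library took 60.3%, 61.0%, 58.7% and 59.5% of its miRNA reads, and the 100 most abundant took from 96.7% to 97.0%. miR-92a-3p, of the proliferation-linked miR-17-92 cluster, took 18.7% and 16.3% of the Dicer WT pools and 14.0% and 13.6% of the DGCR8 WT pools, so the lines did not overlap. miR-9-5p, which acts in neural progenitors and their exit from the cycle, took 11.9% and 15.6% of the Dicer WT pools and 13.55% and 15.01% of the DGCR8 WT pools, with the lines overlapping. By the mean of the 4 libraries miR-181a-5p came next with 6.17% and 6.56% of the Dicer WT pools and 9.47% and 9.28% of the DGCR8 WT pools, higher in both DGCR8 WT mice. miR-92b-3p followed with 8.37% and 6.73% of the Dicer WT pools and 4.67% and 4.84% of the DGCR8 WT pools, higher in both Dicer WT mice. The ranks from the fifth to the tenth went to miR-26a-5p, miR-16-5p, miR-30a-5p, miR-30c-5p, miR-125b-5p and let-7f-5p. Of these, miR-26a-5p lay between 4.52% and 4.90% in all 4 libraries and miR-30c-5p between 2.00% and 2.07%. Shares of reads depend on ligation as well as on abundance, so they do not give molar amounts.

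**Figure D1:**
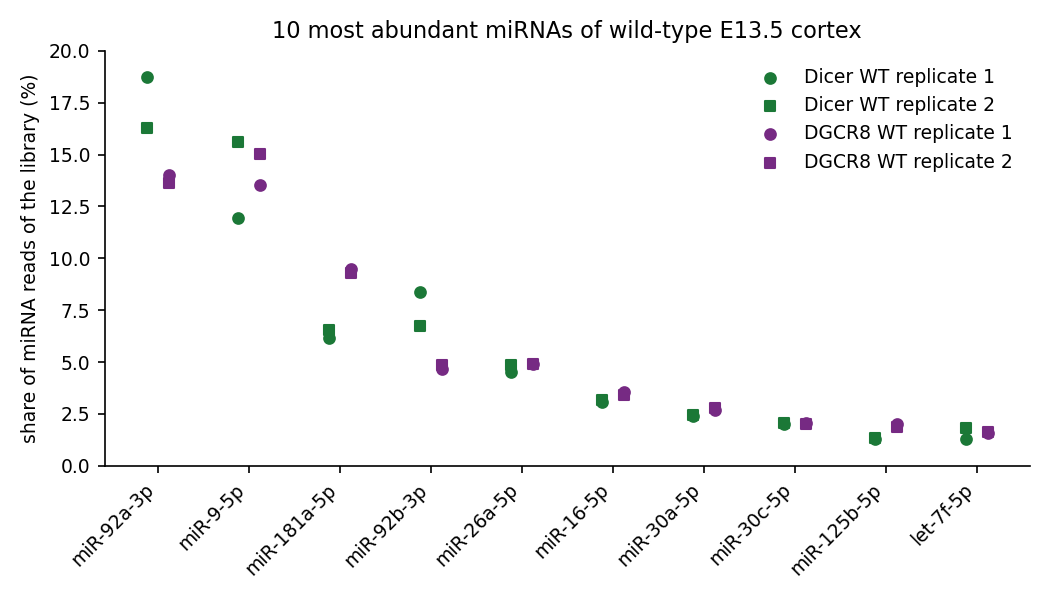
Share of miRNA reads (y axis, percent of the library) of the 10 most abundant miRNAs (x axis) in the 2 Dicer WT and 2 DGCR8 WT libraries, one point per library. miR-92a-3p and miR-92b-3p sit higher in both Dicer WT libraries and miR-181a-5p in both DGCR8 WT libraries, while miR-9-5p overlaps.

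Of the miRNAs known from cortex, miR-9-5p and miR-128-3p were high in every wild type. Other members of the neuronal list were far lower, such as miR-153-3p at 33.5 and 41.6 CPM in the Dicer WT mice. miR-9-5p ranked first or second in each wild-type library, and the neuronal miR-128-3p stood at 10002 and 13871 CPM in the Dicer WT mice and 16315 and 18196 CPM in the DGCR8 WT mice. Hox-cluster miRNAs, which mark tissue behind the forebrain, took at most 0.00559% of reads in a wild-type library. Of all 1432 names 1147 had a read in a wild-type library. On the muscle list 4 of 10 names, all 5p arms, had no read in any wild-type library, and of 18 on the pluripotency list 7 had none. The other names of both lists were read, but 0 members of either list stood at 10 CPM or more.

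Between the lines, neuronal and some imprinted miRNAs were higher in DGCR8 WT, while miRNAs of mesenchyme, vessels, blood and the miR-92 pair were lower. DGCR8 WT was compared with Dicer WT in a fit of all 10 libraries by edgeR's quasi-likelihood test, with counts scaled by TMM (trimmed mean of M values) and given as CPM (counts scaled to a common library size). A miRNA was called at a Benjamini-Hochberg adjusted p below 0.05 over all 557 tested names, and a log2 fold change is DGCR8 WT minus Dicer WT with the SE of the fit. Of 557 miRNAs 42 were called (7.54%), 15 higher in DGCR8 WT (2.69%) and 27 lower (4.85%). Of these, 9 higher and 25 lower ones differed by more than 2-fold, and 2 higher and 11 lower ones by more than 4-fold. The wild types did not overlap for any of the 42, but the same was true of 343 of the 557 (61.6%), so the lack of overlap by itself marks nothing. The 42 made up 29.0% and 24.6% of the Dicer WT pools and 20.7% and 20.3% of the DGCR8 WT pools, most of it miR-92a-3p and miR-92b-3p.

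**Figure D2:**
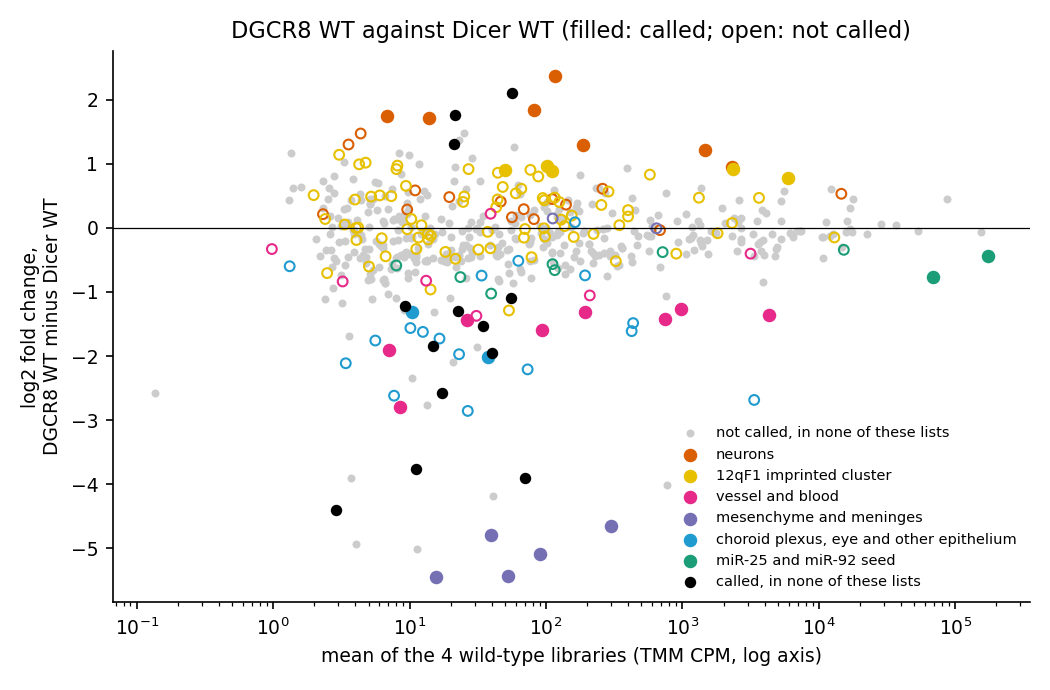
Log2 fold change (y axis, DGCR8 WT minus Dicer WT) against the mean level of the 4 wild-type libraries (x axis, TMM CPM, log axis) for the 557 tested miRNAs, with filled points called at adjusted p below 0.05. The 7 called neuronal miRNAs lie above 0, and the called mesenchymal and vessel and blood miRNAs below it.

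These calls rest on 2 mice a group. With either DGCR8 WT library or Dicer WT replicate 1 left out, 1 miRNA was called, miR-153-3p, and without Dicer WT replicate 2 there were 27, although all 42 kept their direction each time. The 4 wild-type libraries fitted alone gave 74 calls of 529 (14.0%), among them 37 of the 42 in the same direction. Scaling set the balance of higher and lower calls: TMM put the median log2 fold change of all miRNAs at −0.13 with 35.7% of calls higher, DESeq2's size factors put it at 0.0016 with 57.1% of 49 calls higher (8.8% of miRNAs called), and library totals put it at −0.025 with 54.3% of 46 calls higher (8.26% called). All 42 kept their direction under each of these scalings.

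Of the 15 miRNAs higher in DGCR8 WT 7 were on the neuronal list. Of its 22 tested members 7 were called higher and 0 lower, against 2.69% and 4.85% of all miRNAs, and 21 of the 22 had a log2 fold change above 0, where 38.8% of all miRNAs did (median 0.56, all miRNAs −0.13). miR-153-3p, which targets synaptic vesicle proteins, stood at 33.5 and 41.6 CPM in the Dicer WT mice and 198 and 192 CPM in the DGCR8 WT mice. Both DGCR8 WT mice were therefore more than 4-fold above both Dicer WT mice (log2 fold change 2.37 ± 0.22, adjusted p = 0.00105). miR-137-3p, a regulator of neuronal maturation, lay at 37.7 and 33.8 CPM in the Dicer WT mice and 128 and 128 CPM in the DGCR8 WT mice, again without overlap (log2 fold change 1.84 ± 0.28, adjusted p = 0.0162). miR-124-3p, which represses non-neuronal transcripts, lay at 830.4 and 913 CPM in the Dicer WT mice and 2111 and 1947 CPM in the DGCR8 WT mice, a 2.33-fold difference (log2 fold change 1.22 ± 0.24, adjusted p = 0.0207). miR-138-5p, which limits dendritic spine size, lay at 1553 and 1591 CPM in the Dicer WT mice and 3024 and 3041 CPM in the DGCR8 WT mice, close together within each line (log2 fold change 0.95 ± 0.19, adjusted p = 0.0207).

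Both members of the miR-7 pair were higher. miR-7a-5p, of neuroendocrine cells and neurons, lay at 102 and 115 CPM in the Dicer WT mice and 246 and 285 CPM in the DGCR8 WT mice (log2 fold change 1.29 ± 0.28, adjusted p = 0.0291). miR-7b-5p, with the same seed, lay far lower at 6.14 and 6.80 CPM in the Dicer WT mice and 21.5 and 21.2 CPM in the DGCR8 WT mice (log2 fold change 1.71 ± 0.39, adjusted p = 0.0311). In reads without 3′ additions the log2 fold changes were 1.51 and 1.96, and neither was called (adjusted p = 0.0623 and 0.358). miR-129-1-3p was called at 3.91 and 2.35 CPM in the Dicer WT mice and 10.7 and 10.4 CPM in the DGCR8 WT mice (log2 fold change 1.74 ± 0.35, adjusted p = 0.0207), and its relative miR-129-2-3p was not (0.14 ± 0.23, adjusted p = 0.756). The most abundant member, miR-128-3p, was not called (0.53 ± 0.33, adjusted p = 0.341), nor was miR-218-5p, best known from motor neurons, with overlapping lines at 566 and 819 CPM in the Dicer WT mice and 611 and 741 CPM in the DGCR8 WT mice (−0.035 ± 0.25, adjusted p = 0.945). Summed, the list took 1.24% and 1.54% of the Dicer WT pools and 2.28% and 2.33% of the DGCR8 WT pools.

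Part of the 12qF1 imprinted cluster, a group of miRNAs between Dlk1 and Dio3, was higher in DGCR8 WT as well. Of 78 tested members 5 were called higher and 0 lower, a share of 5 in 78 to set against 2.69% of all miRNAs, and 48 lay above 0 (median 0.16). Both arms of miR-434, antisense to the retrotransposon-like gene Rtl1, were among them. miR-434-3p stood at 4682 and 4063 CPM in the Dicer WT mice and 7915 and 7144 CPM in the DGCR8 WT mice (log2 fold change 0.78 ± 0.19, adjusted p = 0.0388), and miR-434-5p at 88.5 and 67.8 CPM in the Dicer WT mice and 147 and 142 CPM in the DGCR8 WT mice (log2 fold change 0.89 ± 0.18, adjusted p = 0.0207). miR-381-3p lay at 1739 and 1495 CPM in the Dicer WT mice and 3247 and 2833 CPM in the DGCR8 WT mice (log2 fold change 0.91 ± 0.18, adjusted p = 0.0207), and each DGCR8 WT mouse exceeded each Dicer WT mouse. miR-136-3p (0.96 ± 0.23, adjusted p = 0.0334) and miR-3071-3p, read from the opposite strand of the same stretch (0.90 ± 0.20, adjusted p = 0.0311), were called too, the latter not in reads without 3′ additions (0.68, adjusted p = 0.244). The most abundant member, miR-127-3p, which is also antisense to Rtl1, was not, with overlapping lines at 15566 and 11721 CPM in the Dicer WT mice and 13204 and 11403 CPM in the DGCR8 WT mice (−0.15 ± 0.15, adjusted p = 0.562). The cluster took 3.41% and 2.53% of the Dicer WT pools and 4.05% and 3.39% of the DGCR8 WT pools, so DGCR8 WT replicate 2 lay just below Dicer WT replicate 1.

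Among miRNAs of dividing progenitors, the miR-92 pair was called lower in DGCR8 WT. miR-92b-3p, abundant in neural progenitors, stood at 93575 and 79059 CPM in the Dicer WT mice and 48446 and 52844 CPM in the DGCR8 WT mice, a 1.70-fold difference (log2 fold change −0.77 ± 0.12, adjusted p = 0.0162). miR-92a-3p stood at 209357 and 191245 CPM in the Dicer WT mice and 145194 and 148891 CPM in the DGCR8 WT mice (log2 fold change −0.45 ± 0.10, adjusted p = 0.0314). The call of miR-92a-3p was lost on library totals (adjusted p = 0.0799), in DESeq2 (0.152), in the 4 wild types alone (0.0507) and in reads without 3′ additions (0.323), while that of miR-92b-3p held in each of these. miR-25-3p, of the same seed, was not called at 17060.3 and 16977 CPM in the Dicer WT mice and 13086 and 13759.9 CPM in the DGCR8 WT mice (−0.34 ± 0.10, adjusted p = 0.0723). All 9 tested arms of that seed family's hairpins were lower in both DGCR8 WT mice than in both Dicer WT mice, where 39.7% of all miRNAs were, and 2 were called. The family took 28.7% and 24.6% of the Dicer WT pools and 20.02% and 19.8% of the DGCR8 WT pools. Of 23 tested members of the miR-17-92 and paralog clusters 1 was called, miR-92a-3p itself, close to the 4.85% of all miRNAs called lower (median −0.32), and miR-17-5p (−0.26 ± 0.15, adjusted p = 0.308) and miR-93-5p (−0.083 ± 0.15, adjusted p = 0.779) were not.

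Families tied to developmental timing and to maturing cells gave 0 calls in the TMM-scaled edgeR fit of all 10 libraries. With 7.54% of all miRNAs called and 26.2% at an unadjusted p below 0.05, so few members would hold few calls at the overall share, and the counts are given as values only. Of 18 tested let-7 names, whose levels rise as progenitors mature, 0 were called by edgeR, 1 had an unadjusted p below 0.05 and DESeq2 called 0. let-7f-5p stood at 14487 and 21264 CPM in the Dicer WT mice and 16167 and 17909.8 CPM in the DGCR8 WT mice, and the lines overlapped (−0.069 ± 0.18, adjusted p = 0.838). miR-9-5p was not called (−0.058 ± 0.17, adjusted p = 0.850). Among 11 tested arms of miR-125, miR-99 and miR-100, also linked to timing, 0 were called in this fit and 3 had an unadjusted p below 0.05. DESeq2 called miR-125b-5p. miR-125b-5p lay at 14352 and 15902 CPM in the Dicer WT mice and 20704 and 20489.9 CPM in the DGCR8 WT mice, apart but not called in this fit (0.45 ± 0.15, adjusted p = 0.101). By edgeR it passed the threshold under library totals (adjusted p = 0.0476) and in the 4 wild types alone (0.0211). miR-181a-5p lay at 69015 and 76965 CPM in the Dicer WT mice and 98192 and 101306 CPM in the DGCR8 WT mice (0.45 ± 0.13, adjusted p = 0.0611) and passed the threshold under library totals (adjusted p = 0.0205), in DESeq2 (0.00642) and in the 4 wild types alone (0.0164). Of 9 tested miR-181 arms 0 were called in the TMM-scaled fit of all 10 libraries, 2 had an unadjusted p below 0.05 and DESeq2 called 2. The edgeR fit of the 4 wild types alone called 4 miR-181 arms higher, where 14.0% of all miRNAs were called in either direction.

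Mesenchymal miRNAs gave the largest differences among called miRNAs. The list holds miR-199a, miR-199b and miR-214, which lie opposite dynamin genes and are expressed in mesenchyme, and the cartilage miRNA miR-140. Of 7 tested arms 5 were called lower in DGCR8 WT and 0 higher, beside 4.85% and 2.69% of all miRNAs. miR-199b-3p, the most abundant, stood at 699 and 453 CPM in the Dicer WT mice and 26.2 and 19.4 CPM in the DGCR8 WT mice (log2 fold change −4.65 ± 0.91, adjusted p = 0.0207). miR-199a-5p lay at 212 and 139 CPM in the Dicer WT mice and 3.58 and 6.77 CPM in the DGCR8 WT mice (log2 fold change −5.08 ± 1.01, adjusted p = 0.0207). miR-199b-5p went from 76.7 ± 13.4 to 2.66 ± 1.85 CPM (SD, n = 2; −4.79 ± 0.94, adjusted p = 0.0207 by edgeR). miR-214-3p lay at 122 and 84.0 CPM in the Dicer WT mice and 1.19 and 3.61 CPM in the DGCR8 WT mice (log2 fold change −5.42 ± 1.11, adjusted p = 0.0221). miR-214-5p, also called, had 144 and 78 reads in Dicer WT and 0 and 3 in DGCR8 WT, too few for a fold. At these few DGCR8 WT reads the size rests on single mice: miR-214-3p gave −4.81 without DGCR8 WT replicate 1 and −6.37 without replicate 2, and miR-199b-5p gave −5.77 without replicate 1. Both arms of miR-140 gave close values in the lines, with miR-140-3p at 632 and 661 CPM in the Dicer WT mice and 629 and 659 CPM in the DGCR8 WT mice (−0.0062 ± 0.16, adjusted p = 0.989). The calls of the list were thus those of miR-199 and miR-214. In bulk tissue, fewer cells of a type and less RNA per cell cannot be told apart.

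Vessel and blood miRNAs were lower in DGCR8 WT as well, by smaller factors. Of 15 tested arms 8 were called lower and 0 higher, beside 4.85% and 2.69% of all miRNAs (median −1.31). In both DGCR8 WT mice 13 of the 15 lay below both Dicer WT mice, as did 39.7% of all miRNAs. miR-126a-3p, the endothelial miRNA encoded in Egfl7, stood at 1179 and 994 CPM in the Dicer WT mice and 395 and 412 CPM in the DGCR8 WT mice (log2 fold change −1.43 ± 0.26, adjusted p = 0.0207). Its other arm, miR-126a-5p, lay at 1478 and 1265 CPM in the Dicer WT mice and 567 and 581 CPM in the DGCR8 WT mice (log2 fold change −1.26 ± 0.27, adjusted p = 0.0272). Both arms thus differed by a similar factor. miR-143-3p, of smooth muscle and pericytes, lay at 6655 and 5773 CPM in the Dicer WT mice and 2302 and 2554 CPM in the DGCR8 WT mice (log2 fold change −1.36 ± 0.28, adjusted p = 0.0233), and its cluster partner miR-145a-5p at 159 and 124 CPM in the Dicer WT mice and 48.5 and 45.1 CPM in the DGCR8 WT mice (log2 fold change −1.59 ± 0.29, adjusted p = 0.0207).

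The blood members differed among themselves. miR-451a, an erythroid miRNA that Argonaute 2 rather than Dicer matures, stood at 305 and 249 CPM in the Dicer WT mice and 116 and 107 CPM in the DGCR8 WT mice (log2 fold change −1.31 ± 0.30, adjusted p = 0.0311). miR-486-5p, an erythroid and muscle miRNA, was not called and lay at 4010.1 and 3171 CPM in the Dicer WT mice and 2672 and 2762 CPM in the DGCR8 WT mice (−0.40 ± 0.16, adjusted p = 0.155). miR-223-3p, of myeloid cells, lay at 17.3 and 12.6 CPM in the Dicer WT mice and 2.38 and 1.80 CPM in the DGCR8 WT mice (log2 fold change −2.79 ± 0.53, adjusted p = 0.0207), and miR-150-5p, of lymphocytes, was not called (−1.05 ± 0.28, adjusted p = 0.0545). miR-155-5p, of activated immune cells, was called (−1.43 ± 0.37, adjusted p = 0.0462) but lost the call on library totals, in DESeq2 and in the 4 wild types alone (adjusted p = 0.0581, 0.0617 and 0.0658). Summed, the list took 1.28% and 1.02% of the Dicer WT pools and 0.612% and 0.611% of the DGCR8 WT pools.

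Of 2 tested Hox-cluster arms 1 was called lower in DGCR8 WT, beside 4.85% of all miRNAs. miR-10b-5p, from the Hoxd cluster, stood at 37.7 and 21.5 CPM in the Dicer WT mice and 3.18 and 6.77 CPM in the DGCR8 WT mice (log2 fold change −2.57 ± 0.59, adjusted p = 0.0311), while its relative miR-10a-5p was not called at 22.6 and 12.3 CPM in the Dicer WT mice and 2.38 and 4.51 CPM in the DGCR8 WT mice (−2.34 ± 0.63, adjusted p = 0.0558). Without DGCR8 WT replicate 2 the value of miR-10b-5p was −3.19. Of 19 tested arms on the choroid plexus, eye and other epithelium list 2 were called lower and 0 higher, beside 4.85% and 2.69% of all miRNAs (median −1.62). In both DGCR8 WT mice 17 of the 19 lay below both Dicer WT mice, as did 39.7% of all miRNAs. The called pair was miR-205-5p, of surface epithelium, at 69.2 and 50.8 CPM in the Dicer WT mice and 14.3 and 15.3 CPM in the DGCR8 WT mice (log2 fold change −2.01 ± 0.46, adjusted p = 0.0311), and miR-211-5p, encoded in Trpm1 and known from pigment cells (−1.32 ± 0.33, adjusted p = 0.0451). The call of miR-211-5p was lost on library totals (adjusted p = 0.0505), in DESeq2 (0.176), in the 4 wild types alone (0.0977) and in reads without 3′ additions (0.0830). miR-204-5p, with the same seed as miR-211-5p and encoded in Trpm3, was the most abundant member and was not called: it lay at 2873 and 8733 CPM in the Dicer WT mice and 866 and 939.6 CPM in the DGCR8 WT mice, 3-fold apart between the Dicer WT mice (−2.68 ± 0.90, adjusted p = 0.0970). miR-34c-5p, of ciliated cells, lay at 321 and 959.8 CPM in the Dicer WT mice and 226 and 232 CPM in the DGCR8 WT mice (−1.49 ± 0.60, adjusted p = 0.155), and miR-449a-5p, also of ciliated cells, at 414 and 865 CPM in the Dicer WT mice and 187 and 232 CPM in the DGCR8 WT mice (−1.61 ± 0.63, adjusted p = 0.147). Dicer WT replicate 2 was the highest wild-type library for each of these 3. Of 15 members at 10 CPM or more, 9 differed more than 2-fold between the Dicer WT mice. The list took 0.388% and 0.989% of the Dicer WT pools and 0.170% and 0.173% of the DGCR8 WT pools.

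**Figure D3:**
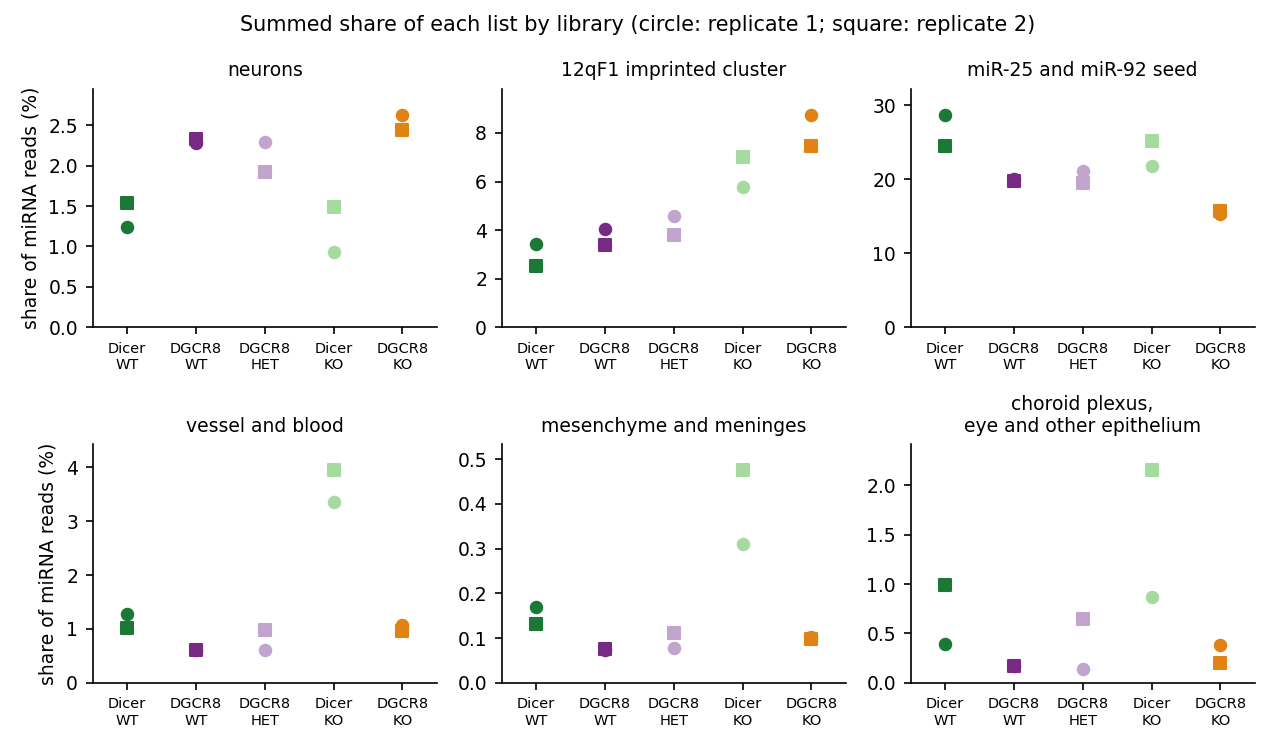
Share of miRNA reads (y axis, percent, linear from 0) of 6 lists by group (x axis), one point per library, with circles for replicate 1 and squares for replicate 2. The neuronal share is higher in both DGCR8 WT libraries than in both Dicer WT libraries, the vessel and blood and mesenchymal shares lower, and of the 6 lists the epithelial one shows the largest ratio between the Dicer WT libraries.

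The neuronal share was higher and the vessel, mesenchymal and epithelial shares lower in both DGCR8 WT mice than in both Dicer WT mice, and the part of any of them in another was not tested. Between the Dicer WT mice the shares did not go together: replicate 2 had more of the neuronal and epithelial lists and less of the vessel and mesenchymal lists than replicate 1. Between the DGCR8 HET mice they did: the neuronal share was lower in replicate 2 (2.29% and 1.93% in replicates 1 and 2). The vessel (0.603% and 0.972%), mesenchymal (0.0776% and 0.112%) and epithelial (0.144% and 0.646%) shares were higher in it. The counts of the next lists lie near the shares of all miRNAs, which are 7.54% called, 2.69% higher and 4.85% lower, with 26.2% at an unadjusted p below 0.05. The 5 tested glial arms gave 0 calls by edgeR, with 0 in DESeq2 and 1 at an unadjusted p below 0.05. Of 16 tested arms listed as made without DGCR8 1 was called, miR-344c-3p, at 10.6 and 13.6 CPM in the Dicer WT mice and 32.6 and 27.5 CPM in the DGCR8 WT mice (log2 fold change 1.31 ± 0.26, adjusted p = 0.0207). Of the same list, miR-320-3p (−0.36 ± 0.17, adjusted p = 0.216) and miR-484 (−0.092 ± 0.12, adjusted p = 0.685) were not called. Of 19 tested members of the repeat-derived Sfmbt2-type family 1 was called lower, miR-466p-3p (−1.09 ± 0.27, adjusted p = 0.0392), a call lost on library totals (adjusted p = 0.0679).

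The other called miRNAs were 2 higher and 8 lower ones that stood on no list. miR-3059-5p, in an intron of Mgat4c, stood at 17.3 and 24.9 CPM in the Dicer WT mice and 101 and 81.2 CPM in the DGCR8 WT mice (log2 fold change 2.11 ± 0.38, adjusted p = 0.0207), and miR-551b-3p, in an intron of Egfem1, at 8.37 and 11.0 CPM in the Dicer WT mice and 38.2 and 28.0 CPM in the DGCR8 WT mice (log2 fold change 1.77 ± 0.34, adjusted p = 0.0207). Both were higher in each DGCR8 WT mouse than in each Dicer WT mouse. miR-483-5p, in an intron of the growth factor gene Igf2, lay at 25.95 and 15.7 CPM in the Dicer WT mice and 0.795 and 2.26 CPM in the DGCR8 WT mice (log2 fold change −3.76 ± 0.71, adjusted p = 0.0207), or −3.17 and −4.62 without DGCR8 WT replicate 1 or 2. miR-455-3p, in an intron of the cartilage collagen gene Col27a1, lay at 234 and 28.3 CPM in the Dicer WT mice and 7.55 and 9.92 CPM in the DGCR8 WT mice (log2 fold change −3.90 ± 0.83, adjusted p = 0.0259). Its Dicer WT mice were 8-fold apart, the log2 fold change without Dicer WT replicate 1 was −1.69 and without replicate 2 −4.74, and the 4 wild types alone gave an adjusted p of 0.0649. miR-511-3p, in an intron of the macrophage receptor gene Mrc1, had 23 and 18 reads in Dicer WT and 0 and 1 in DGCR8 WT. miR-574-3p (−1.95 ± 0.44, adjusted p = 0.0311), miR-146a-5p, an immune regulator (−1.84 ± 0.40, adjusted p = 0.0290), and miR-152-3p, in an intron of Copz2 (−1.53 ± 0.35, adjusted p = 0.0311), were lower too. miR-1981-5p (−1.29 ± 0.33, adjusted p = 0.0462) and miR-27a-5p (−1.21 ± 0.32, adjusted p = 0.0496) passed narrowly, and both lost the call on library totals. In reads without 3′ additions miR-551b-3p (adjusted p = 0.0580) and miR-146a-5p (0.0554) were not called.

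**Figure D4:**
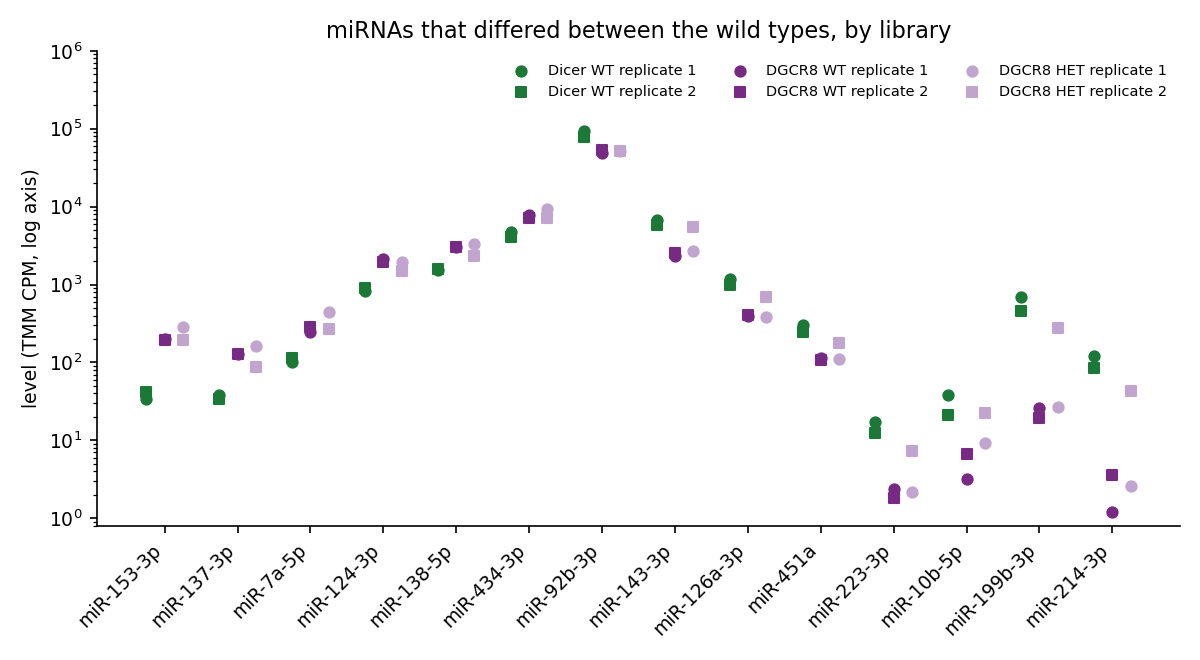
Level (y axis, TMM CPM, log axis) of 14 called miRNAs (x axis) in the 2 Dicer WT, 2 DGCR8 WT and 2 DGCR8 HET libraries, one point per library. For each miRNA the wild types do not overlap. DGCR8 HET replicate 2 lies between the lines for miR-199b-3p and miR-214-3p. Among all called miRNAs it also does so for others, such as miR-126a-3p, miR-143-3p and miR-124-3p. It lies within the DGCR8 WT range for some, such as miR-153-3p and miR-92b-3p, and within the Dicer WT range for miR-10b-5p.

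At the median, mice of a line differed less than mice of different lines. Among 401 miRNAs at 10 CPM or more, the median absolute log2 difference was 0.23 between the Dicer WT mice and 0.14 between the DGCR8 WT mice, and from 0.31 to 0.42 between a mouse of each line. Differences over 2-fold were seen for 22 miRNAs between the Dicer WT mice, 7 between the DGCR8 WT mice and 51 to 58 between the lines. No name was read at depth in one line alone: 44 names had reads in both Dicer WT libraries and in neither DGCR8 WT library, with at most 6 reads each, and 6 names the reverse, with at most 3.

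The arms of a hairpin, which come from one precursor, mostly lay together. Of 150 hairpins with both arms tested 112 had the same sign in both, and the median absolute difference between arms was 0.27 on the log2 scale. At least 1 arm was called in 17 of them, and all 17 had both arms on the same side. Both arms were called in 5. The miR-455 arms were unlike in size, at −3.90 for miR-455-3p and −0.82 ± 0.26 for miR-455-5p. For miR-551b the arms stood at 1.77 and 0.43.

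For the called miRNAs, the DGCR8 HET libraries, from the same line as DGCR8 WT and in no wild-type mean, mostly lay on the DGCR8 WT side. DGCR8 HET replicate 1 lay beyond both Dicer WT mice on that side for 42 of the 42 called miRNAs and replicate 2 for 41. The 42 were called against these same Dicer WT mice in a fit that also held the HET libraries. The share among all 557 miRNAs was not counted, so these counts are given as values only. Between DGCR8 HET and DGCR8 WT 0 miRNAs were called by edgeR (0.0%), with 23 at an unadjusted p below 0.05 (4.13%) and 0 by DESeq2. The HET mice were not alike in some miRNAs: miR-199b-3p stood at 26.6 and 276 CPM in them, and miR-143-3p at 2682 and 5461 CPM. Replicate 2 was above replicate 1 for 22 of the 27 lower miRNAs and for 0 of the 15 higher ones. How often replicate 2 was above among all 557 was not counted, so this split is given as a value only. Without DGCR8 HET replicate 2 the wild-type comparison gave 53 calls, with 41 of the 42 among them.

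The knock-outs repeat the comparison of lines in 4 other libraries, though there the deleted gene differs as well. DGCR8 KO against Dicer KO gave 188 calls of 557 (33.8%), 12.6% higher and 21.2% lower. Of the 42 miRNAs called between wild types 41 had the same sign in the knock-outs and 37 were called in the same direction, 13 of 15 higher and 24 of 27 lower. Both comparisons come from one fit of all 10 libraries, so their calls are not independent. The share of equal sign among all 557 was not counted, so the 41 is given as a value only. miR-153-3p stood at 141 and 151 CPM in Dicer KO and 371 and 355 CPM in DGCR8 KO (log2 fold change 1.31 ± 0.22, adjusted p = 0.00218). miR-199b-3p stood at 1292 and 2514 CPM in Dicer KO and 38.5 and 49.5 CPM in DGCR8 KO (log2 fold change −5.44 ± 0.93, adjusted p = 0.00236), and miR-126a-3p at 3058 and 3504 CPM in Dicer KO and 492 and 531 CPM in DGCR8 KO (log2 fold change −2.68 ± 0.27, adjusted p = 0.000339). For miR-92b-3p the difference was called too, at 25153 and 27458 CPM in Dicer KO and 19741 and 17588 CPM in DGCR8 KO (log2 fold change −0.50 ± 0.12, adjusted p = 0.0103). Those not called there were miR-1981-5p (−0.68 ± 0.35), miR-211-5p (0.52 ± 0.38), miR-3071-3p (0.37 ± 0.20), miR-381-3p (0.37 ± 0.17) and miR-466p-3p (−0.053 ± 0.28), of which miR-211-5p had the opposite sign. The difference of the line differences was called for 12 of 557 miRNAs (2.15%, 0.898% upward and 1.26% downward) and for 0 of the 42, the lowest adjusted p among these being 0.0892. In the comparison of DGCR8 KO with Dicer KO alone, the deletion, the line and the column number cannot be told apart.

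**Figure D5:**
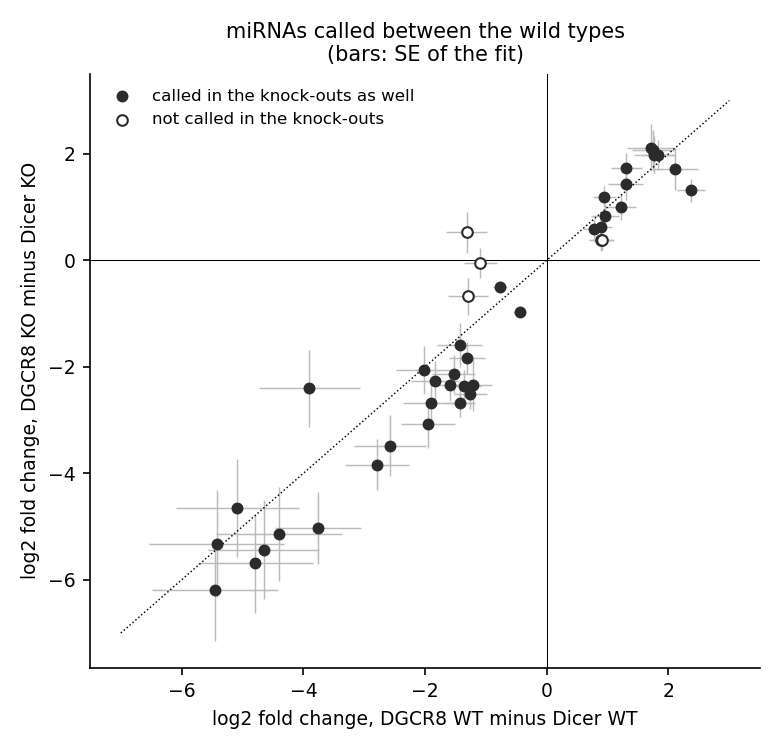
Log2 fold change between lines in the knock-outs (y axis, DGCR8 KO minus Dicer KO) against that in the wild types (x axis, DGCR8 WT minus Dicer WT) for the 42 miRNAs called between wild types, with bars for the SE of the fit and a dotted line of equality. Of the 42 points 41 lie in the quadrants of equal sign, and the 37 filled ones were called in the same direction in the knock-outs.

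Each count also carries the 3′ end of the read, since the deposited table splits a miRNA by the bases added to its annotated end. Reads with no addition made up 58.2% and 61.1% in Dicer WT and 61.7% and 62.6% in DGCR8 WT. An added T, the most frequent addition, made up 20.9% and 18.5% in Dicer WT and 18.0% and 17.4% in DGCR8 WT, higher in both Dicer WT mice than in both DGCR8 WT mice. miR-92a-3p held 49.0% of all T reads, and its own T form took 62.5% and 59.0% in Dicer WT and 57.0% and 56.1% in DGCR8 WT of its reads, against 1.70% and 1.71% in Dicer WT and 1.83% and 1.89% in DGCR8 WT with no addition. Its genomic next letters in the RefSeq hairpins are AGG at one locus and TTG at the other, so an added T equals the hairpin letter at one of them. For miR-9-5p, whose next letters are GTG, the T form took 1.22% and 1.25% in Dicer WT and 1.51% and 1.48% in DGCR8 WT of its reads. An added CT made up 4.67% and 4.64% in Dicer WT and 5.35% and 5.33% in DGCR8 WT, of which miR-30a-5p, with CTG as the next letters, held 44.2%. Additions equal to the next hairpin letters made up 24.8% and 22.6% in Dicer WT and 21.8% and 21.3% in DGCR8 WT, and additions that differ from them 12.2% and 11.8% in Dicer WT and 11.5% and 11.4% in DGCR8 WT. For 8.85% to 9.60% of reads no hairpin could be matched.

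The median GC content was lower for the called miRNAs higher in DGCR8 WT than for those lower in it, a difference that was not tested. Across all matched miRNAs the relation of GC content to the log2 fold change was weak. A RefSeq sequence was matched for 478 of the 557 tested miRNAs (85.8%) and for 34 of the 42 called ones. The median GC content was 43.5% for 13 higher ones, 52.2% for 21 lower ones and 47.8% for all matched. Across miRNAs the Spearman correlation of the log2 fold change with GC content was −0.081 and with length −0.037, as a description over miRNAs that share the same 4 libraries. The median length was 22 bases in each set.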

How the data were processed

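Small RNA libraries were made from 1000 ng of total RNA with a TruSeq small RNA kit, per the labels' protocols. The deposited table holds raw read counts, 19414 entries by 10 libraries, in which the authors gave each mature miRNA name and 3′ addition a row. The submitters' processing notes name Bowtie and GRCm38, and the table's name IsomiRAGE; settings, annotation and the handling of reads with several matches are not stated. Whether the libraries of a group come from separate litters is not stated. The p-values rest on the spread within all groups of the fit, knock-outs and DGCR8 HET included. Whether that spread takes in differences between litters is not known.

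Counts were summed over additions for 1432 names. Of 1249 names with a read, 557 passed filterByExpr (minimum count 10, minimum total 15), and the rest held 0.0297% to 0.0476% of reads. Library totals, from 800623 to 4486774 miRNA reads, were scaled by TMM without a spike-in, so every difference is relative to the other miRNAs. edgeR 4.0.16 in R 4.3.3 fitted 1 mean per group over 10 libraries, with a biological coefficient of variation of 0.230. Tests were two-sided, with Benjamini-Hochberg adjustment over the 557 names. Shares have no test, since an exact permutation of 2 against 2 cannot go below p = 0.333. DESeq2 1.42.0, other scalings, no filter, the 4 wild types alone, a replicate block, reads without additions, thinning to 800623 reads and omission of libraries were alternatives, and omission of DGCR8 HET replicate 2 was added after seeing the data. Named miRNAs are the 10 most abundant, the 10 largest called differences each way at 10 CPM or more without overlap, up to 4 abundant members per list, other arms and family members. Others were chosen after their values were seen. Members and lists were chosen with earlier results of these data known. Sequences are from RefSeq, and host genes from GENCODE on the same build.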

Additional observations from a re-analysis of the deposited data

Results flagged for a closer look

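For 3 named miRNAs the difference between lines itself differed between wild types and knock-outs, by a test of that difference. miR-1983, listed as made without DGCR8, stood at 1124 and 1301 CPM in the Dicer WT mice and 1041 and 1136 CPM in the DGCR8 WT mice, and at 444 and 401 CPM in Dicer KO and 1242 and 1436 CPM in DGCR8 KO. The line difference was 1.819 higher on the log2 scale in the knock-outs than in the wild types (SE 0.220, adjusted p = 0.00422 by edgeR's quasi-likelihood test). miR-484, of the same list, stood at 3357 and 3404 CPM in the Dicer WT mice and 3109.7 and 3233 CPM in the DGCR8 WT mice, and at 1834 and 1786 CPM in Dicer KO and 3427 and 3726 CPM in DGCR8 KO, a change in line difference of 1.075 (SE 0.169, adjusted p = 0.0122 by edgeR's quasi-likelihood test). miR-486-5p, on the vessel and blood list, stood at 4010.1 and 3171 CPM in the Dicer WT mice and 2672 and 2762 CPM in the DGCR8 WT mice, and at 8464 and 9402 CPM in Dicer KO and 3274 and 2709 CPM in DGCR8 KO. Its line difference changed by −1.176 (SE 0.230, adjusted p = 0.0314 by edgeR's quasi-likelihood test). None of the 3 was called between the wild types. A line difference of equal size in wild types and knock-outs cancels in this test. In the comparison of the knock-outs alone, the deletion and the line cannot be told apart.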

How the results depend on the processing

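All 42 miRNAs kept their direction under each scaling, in DESeq2, without the filter, in the wild types alone and with each wild-type library omitted, as did the 41 that could be fitted in reads without 3′ additions. Calls between the wild types, 42 in the fit reported, numbered 46 on library totals, 49 with DESeq2's size factors, 63 in DESeq2, 93 with no filter, 74 in the 4 wild types alone, 30 in reads without 3′ additions and 27 after thinning, and ranged from 1 to 53 with a library omitted. The thinned and addition-free fits tested 448 and 455 names. Calls were lost for 6 miRNAs under each other scaling, 7 in DESeq2, 13 without additions and 18 after thinning. For the knock-outs, omissions gave 118 to 211 calls, fewest without DGCR8 KO replicate 2. The difference of line differences, 12 calls, gave 21 on library totals, 38 in DESeq2, 52 with no filter, 5 without 3′ additions and 0 to 49 with a library omitted. DGCR8 HET against DGCR8 WT gave 18 calls with no filter and 0 to 13 with a library omitted, the 13 without DGCR8 HET replicate 1. An omission leaves a group of 1, assumed to vary like the others. The cause of these shifts was not tested.

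With the replicate number as a block, the calls were 53 between wild types, all 42 among them, 184 between knock-outs, 14 for the difference of line differences and 0 for DGCR8 HET against DGCR8 WT. The labels do not say that numbers pair mice, and deviations of same-numbered wild types correlated at 0.162.

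Without 3′ additions 59 of 80 list shares moved by more than 1 SD, and 15 of 20 lists kept the sign of the line difference; let-7, miR-9, miR-26, miR-29 and the list made without DGCR8 turned. The medians of these lists and of miR-30 also changed sign with the scaling. Groups of 2 mice and reads in single figures limit what can be seen for rare miRNAs.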

Other observations

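A cluster of miRNAs in introns of the serotonin receptor gene Htr2c on chromosome X was chosen after its values were seen, and its members differed widely between the Dicer WT mice. miR-1298-5p lay at 254 and 2643 CPM in the Dicer WT mice and 101 and 78.9 CPM in the DGCR8 WT mice, and at 47.0 and 957 CPM in DGCR8 HET. It was not called between wild types (−4.01 ± 1.48, adjusted p = 0.126 by edgeR). miR-1264-3p lay at 3.91 and 40.3 CPM in the Dicer WT mice and 0.0 and 1.35 CPM in the DGCR8 WT mice (adjusted p = 0.0826), and at 1.31 and 10.5 CPM in DGCR8 HET. miR-448-3p lay at 11.2 and 144 CPM in the Dicer WT mice and 5.17 and 3.16 CPM in the DGCR8 WT mice (−4.19 ± 1.42, adjusted p = 0.0984), and at 4.36 and 37.5 CPM in DGCR8 HET. Dicer WT replicate 2 was the highest wild type for each of these, as it was for the choroid plexus miRNA miR-204-5p at 8733 CPM. DGCR8 HET replicate 2 was likewise above replicate 1, with miR-204-5p at 641 and 4371 CPM in the HET mice. Htr2c itself is known for high expression in choroid plexus, and no mRNA was measured here.

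Most of the other miRNAs whose line difference differed between wild types and knock-outs were on no list. The lowest adjusted p of all 12 was that of miR-6944-3p, on no list (1.94 on the log2 scale, SE 0.208, adjusted p = 0.00293 by edgeR's quasi-likelihood test). By the same test miR-6958-3p, also on no list, gave 2.95 (SE 0.481, adjusted p = 0.0124). miR-702-3p, listed as made without DGCR8, gave 1.92 (SE 0.306, adjusted p = 0.0122). miR-23a-3p stood at 397 and 429 CPM in the Dicer WT mice and 264 and 291 CPM in the DGCR8 WT mice, and at 386 and 370 CPM in Dicer KO and 77.0 and 71.5 CPM in DGCR8 KO (−1.77 on the log2 scale, SE 0.267, adjusted p = 0.0122 by edgeR's quasi-likelihood test). Its cluster partner miR-27a-3p stood at 155 and 186 CPM in the Dicer WT mice and 96.2 and 111 CPM in the DGCR8 WT mice, and at 194 and 183 CPM in Dicer KO and 30.4 and 42.5 CPM in DGCR8 KO (−1.66, SE 0.334, adjusted p = 0.0337 by edgeR's quasi-likelihood test). miR-24-2-5p, of the same cluster, gave −1.70 (SE 0.327, adjusted p = 0.0314 by edgeR's quasi-likelihood test).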
